A study of Mus musculus with 8 samples.

Results

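The array measured 95 genes named Gpr followed by a number, most of them G protein-coupled receptors. Of these, 39 could be tested, and 5 (12.8%) differed between resident microglia and invading macrophages of the ischemic mouse brain. Of all tested gene names, 6.66% differed. Members were the array's gene names made of Gpr and a number, 5 of them with a suffix (Gpr31b, Gpr37l1, Gpr137b, Gpr137b-ps and Gpr137c), out of 34821 gene names in all. They were read by 117 probes, and the probe with the highest mean signal stood for each of the 17 genes with several. Of the 95 names, 21 have since been replaced in the RefSeq gene table, so that Gpr56 is now Adgrg1, Gpr125 is Adgra3 and Gpr77 is C5ar2. The names of the array are kept below.

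The study compared 4 samples of resident microglia, sorted as GFP+, with 4 samples of invading macrophages, sorted as RFP+, from bone marrow chimeric C57BL/6 mice. All 4 animals (A to D) had 30 minutes of focal brain ischemia by occlusion of the middle cerebral artery (MCAo) and 7 days of reperfusion, received no further treatment, and gave 1 sample of each kind, so that replicates 1 to 4 of both groups stand for animals A to D. There was no sample without ischemia, and how the chimeras were made, the age of the mice and the promoters behind the 2 fluorescent proteins are not stated in the labels. RNA was amplified by a global PCR of cDNA before Cy3 labelling, and each sample was hybridised to 1 one-colour array.

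A G protein-coupled receptor passes the binding of its ligand, through a change of its membrane helices, to a G protein inside the cell, which then acts on adenylyl cyclases, phospholipases C or small GTPases. The Gpr number is a provisional name given while no ligand was known. Many of these receptors have since been matched to lipids, protons, metabolites or peptides, while others, the adhesion class, carry long extracellular parts that touch matrix or neighbouring cells. Microglia are known for a small set of such receptors, Gpr34 and Gpr56 among them, and myeloid cells in general for receptors that sense inflammatory lipids and acid, such as Gpr84, Gpr132 and Gpr65.

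The sequences behind the results are short. Signals of the 5 genes that passed the test came from probes of 60 bases, of which the first 30 are given here as the array files list them, with positions in build mm9. The Gpr34 probe lies at chrX:13217863-13217922 on the plus strand, that of Gpr84 at chr15:103138670-103138729 on the minus strand, that of Gpr56 at chr8:97537978-97538037 on the plus strand and that of Gpr132 at chr12:114089088-114089147 on the minus strand. The 60 bases of the Gpr155 probe are spread over chr2:73191775-73194678 on the minus strand, a span longer than the probe itself. Whether the probes lie in coding exons or UTRs was not determined here.
Gpr34 probe: gactgagttgaaatgtcagtgaacatgagt
Gpr84 probe: gtcaaccctgtgtgacccaaggagtgtggt
Gpr56 probe: taccagttcatttgtcttttgatattaaag
Gpr155 probe: ctatgccttcttcctttgagaaaaccgacc
Gpr132 probe: tttctcctgattctgtctgttgtccccatc

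Promoters of Gpr84, Gpr132, Gpr155 and Gpr56 were read from RefSeq's GRCm38.p6 annotation, from 250 bases before the annotated start to 30 bases after it, to show where transcripts of called genes are annotated to begin. The sequence is at chr15:103310409-103310688 on the minus strand for Gpr84, at chr12:112860887-112861166 on the minus strand for Gpr132 and at chr8:94984149-94984428 on the plus strand for the second of the annotated starts of Gpr56. Capitals mark matches to TGANTCA, the motif of AP-1 factors, or to GAGGAA, the core read by ETS factors such as PU.1, searched on both strands. The Gpr56 stretch holds the AP-1 letters at 141 and 59 bases before the start. These matches do not overlap each other. Neither motif is in the windows of Gpr84, Gpr132 and Gpr155 or in that of the first start of Gpr56. Among 32851 promoters of this length, 7.46% hold the AP-1 letters and 25.98% the ETS core, and 5 and 14 of the 38 promoters of 27 tested members do.
Gpr56 promoter: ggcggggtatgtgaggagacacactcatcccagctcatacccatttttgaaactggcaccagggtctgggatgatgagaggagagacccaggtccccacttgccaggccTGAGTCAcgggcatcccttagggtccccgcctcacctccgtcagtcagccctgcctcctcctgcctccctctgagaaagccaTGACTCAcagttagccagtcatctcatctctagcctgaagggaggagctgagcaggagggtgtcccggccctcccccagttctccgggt
Gpr84 promoter: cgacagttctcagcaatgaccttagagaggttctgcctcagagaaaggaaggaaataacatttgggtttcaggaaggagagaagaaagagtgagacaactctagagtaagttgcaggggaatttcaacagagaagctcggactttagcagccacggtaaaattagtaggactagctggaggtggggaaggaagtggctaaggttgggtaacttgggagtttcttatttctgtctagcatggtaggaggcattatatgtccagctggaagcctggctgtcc
Gpr132 promoter: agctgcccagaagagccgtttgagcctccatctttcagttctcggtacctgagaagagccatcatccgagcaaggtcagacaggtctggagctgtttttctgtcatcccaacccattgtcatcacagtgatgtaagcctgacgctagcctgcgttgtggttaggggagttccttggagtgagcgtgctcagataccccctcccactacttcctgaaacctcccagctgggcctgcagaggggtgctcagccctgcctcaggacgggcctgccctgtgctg

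Values below are log2 processed signals relative to each array's 75th percentile, so that 0 is the level of that percentile and 1 unit is a doubling, and differences are macrophages minus microglia. A gene was tested if its probe was well above background, as the scanner software judged it, on at least 4 of the 8 arrays, and it was called at an adjusted p under 0.05 (limma, Benjamini-Hochberg over all 19720 tested gene names). Per array, 45.7% to 57.1% of all probes passed that judgement. The labelled cell types showed in their markers. The 11 microglia markers had medians of 6.53 to 6.96 on the microglia arrays and of 3.78 to 5.39 on the macrophage arrays, and 12 monocyte markers had medians of 0.07 to 1.37 and 2.71 to 3.61. No marker of these 2 lists was below background on all arrays of a group. Macrophages replicate 2 stood apart, correlating with the other macrophage arrays at 0.855 to 0.887 where these reached up to 0.960 among themselves, and it was the array with the most signal from blood vessel endothelium. Values without it are given beside many, not all, of the receptors named below whose difference it moved.

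Of the 95 genes, 29 were well above background on all 8 arrays, 10 on 4 to 7, 25 on 1 to 3 and 31 on none. The 39 that could be tested are 41.1% of the members, against 56.6% of all gene names on the array. The counts differed between the role lists. Of 24 brain-enriched class A orphan receptors, 14 were above background on no array, among them Gpr22 and Gpr151, and 3 were above it on all 8 (Gpr26, Gpr45 and Gpr52). Of 11 receptors for lysophospholipids, fatty acids, oxysterols and other lipids, 5 were measured on all 8 arrays and 2 on none. All 8 arrays measured 5 of the 17 adhesion receptors and 3 of the 9 class A orphan receptors of leukocytes. Of the 11 Gpr-named membrane proteins outside the classical receptor classes, 8 were measured on every array, and of the 3 class C orphans none was. Gpr157, Gpr137b-ps and Gpr77 were among the brightest members in both groups.

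Of the 39 tested genes, 5 (12.8%) were called, 4 lower and 1 higher in macrophages. Over all tested gene names 6.66% were called, 4.13% lower and 2.53% higher. The median difference of the 39 was -0.08, and that of all tested gene names was 0.02. Differences were above 0 for 18 members and below 0 for 21. Without the adjustment, 10 members (25.6%) had p under 0.05, 3 of them higher and 7 lower in macrophages, where 23.9% of all tested gene names did, 11.5% higher and 12.5% lower. In 7 tested members (17.9%) the values of the groups did not overlap, the 5 called genes and Gpr137 among them, 1 higher and 6 lower in macrophages. The same held for 17% of all tested gene names, 7.49% higher and 9.46% lower. Both shares of the members, taken over the 2 directions, are near those of all gene names. Without macrophages replicate 2, 11 members were called, 5 higher and 6 lower, where 15.1% of all tested gene names were called, 8.27% higher and 6.86% lower.

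**Figure D1:**
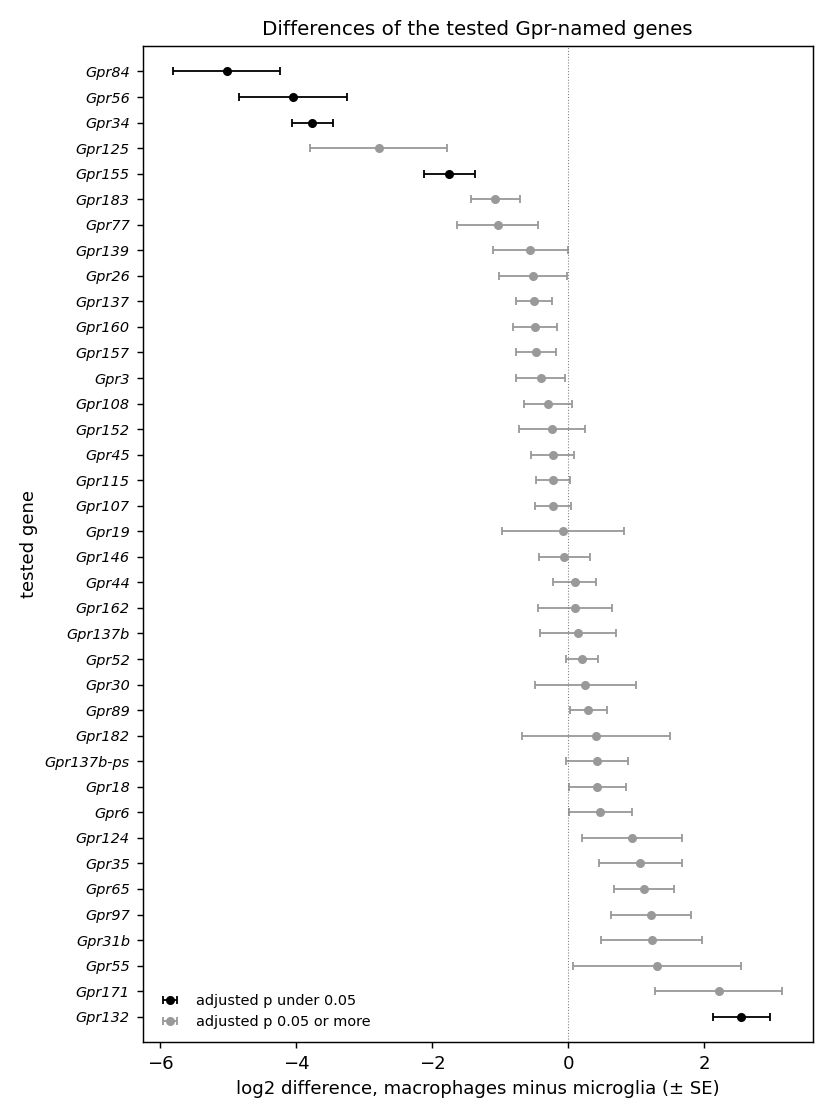
Log2 difference (macrophages minus microglia, horizontal axis) of 38 of the 39 tested genes, as a point with its standard error, ordered from the most negative to the most positive. The 4 called genes on the left run from Gpr84 at -5.02 to Gpr155 at -1.75, and on the right Gpr132 stands at 2.55.

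Lipid receptors, 8 of the 39 tested genes, held 3 of the 5 called genes. Of these, Gpr84 is also in the list of small metabolite receptors and Gpr132 in the proton-sensing list. Gpr34, a receptor of lysophosphatidylserine that microglia are known for, was 13.5-fold lower in macrophages. In microglia replicates 1 to 4 it measured 3.14, 3.50, 2.67 and 3.71. The macrophage replicates gave -0.62, -0.65, -0.79 and 0.04. The 4 macrophage arrays sat close together and far below the 4 microglia arrays, and all were well above background. The difference was -3.76 ± 0.30 (SE, n = 4 and 4, limma adjusted p = 0.000238), it was lower in 4 of 4 animals, and it was called whichever array was left out. In bulk samples such as these, fewer cells of a type that holds the transcript and less of it per cell cannot be told apart.

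Gpr84, which responds to medium-chain fatty acids and is known to be induced in activated myeloid cells, had the most negative difference of the tested members. On microglia replicates 1 to 4 it measured 1.64, 1.43, 1.63 and 1.43, a spread smaller than for any other called member (SD 0.12). On macrophage replicates 1 to 4 it measured -3.40, -6.11, -2.13 and -2.31. Every microglia array lay above every macrophage array, and 2 of the 4 macrophage arrays measured the gene well above background. The fitted difference was -5.02 ± 0.79 (SE, n = 4 and 4, limma adjusted p = 0.00827), and with signals under an array's lowest measured level raised to that level the fold was 26.8. Without macrophages replicate 2, where the probe read lowest, the difference was -4.15 (adjusted p = 0.000373).

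Gpr132, listed here among the lipid receptors and the proton-sensing receptors, was the called gene with the higher signal in macrophages, by 5.84-fold. Microglia replicates 1 to 4 measured 0.29, 0.04, -0.08 and 1.43. Macrophage replicates 1 to 4 measured 2.14, 3.45, 3.26 and 3.02. The highest microglia array, that of animal D, stayed below the lowest macrophage array, that of animal A. The difference was 2.55 ± 0.42 (SE, n = 4 and 4, limma adjusted p = 0.00966), higher in 4 of 4 animals, and it kept its call in all 8 fits without 1 array.

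Gpr183, which guides immune cells along gradients of a dihydroxycholesterol, missed the threshold. Its microglia arrays measured 0.82, 1.42, 1.41 and 1.61 and its macrophage arrays 0.34, 0.28, -0.60 and 0.97. It was lower in macrophages in 4 of 4 animals, but the macrophage array of animal D lay above the microglia array of animal A. The difference was -1.07 ± 0.35 (SE, n = 4 and 4, limma adjusted p = 0.112). Ch25h, the enzyme that makes the hydroxycholesterol from which that ligand is built, was called lower in macrophages, at -1.65 ± 0.37 (SE, adjusted p = 0.0351), although the call was lost with the animal as a replicate block (adjusted p = 0.114). The other tested lipid receptors, Gpr55, Gpr18, Gpr44 (the prostaglandin D receptor Ptgdr2) and Gpr30 (the estrogen-responsive Gper1), differed by 0.09 to 1.31, with adjusted p of 0.556 or more for each. Without macrophages replicate 2, Gpr55 differed by 0.90 and Gpr30 by -0.24, where it had been 0.26. Gpr18 went from 0.43 to 0.18 without that array.

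**Figure D2:**
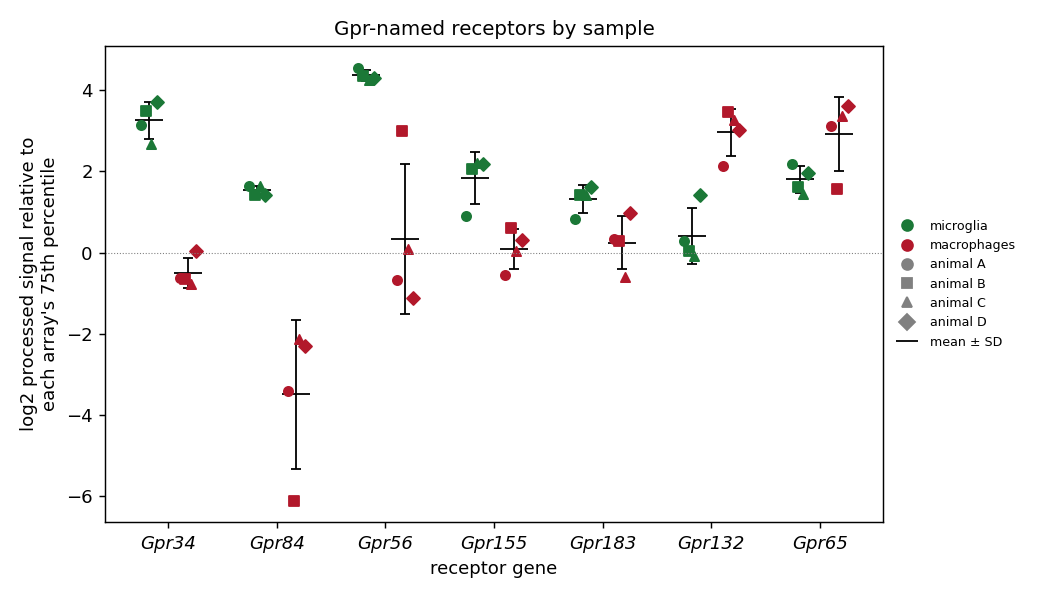
Log2 processed signal relative to each array's 75th percentile (vertical axis) of 7 receptor genes in every sample, green for microglia and red for macrophages, with the animal as the shape and black bars for the mean ± SD of 4 samples. Gpr34, Gpr84, Gpr56 and Gpr155 lie lower in macrophages without overlap and Gpr132 lies higher. Gpr183 and Gpr65 overlap between the groups.

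Gpr65 responds to acid outside the cell and shares the proton-sensing list with Gpr132. It measured 2.19, 1.62, 1.43 and 1.96 in microglia and 3.12, 1.58, 3.37 and 3.62 in macrophages. Macrophage replicates 1, 3 and 4 lay above all microglia arrays, and replicate 2 lay among the microglia arrays. The difference was 1.12 ± 0.45 (SE, n = 4 and 4, limma adjusted p = 0.172), and without that array it was 1.56 (adjusted p = 0.00826). Gpr4, an acid-sensing receptor known from blood vessel endothelium, was above background on 1 microglia array and 2 macrophage arrays and was not tested.

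Receptors of small metabolites and peptides held no called gene apart from Gpr84. Gpr35, for which kynurenic acid has been proposed as a ligand, measured 0.83, -0.19, 1.02 and 0.86 in microglia and 2.70, -0.16, 2.12 and 2.11 in macrophages. It was higher in macrophages in 4 of 4 animals, yet the low values of animal B made the groups overlap. The difference was 1.06 ± 0.60 (SE, n = 4 and 4, limma adjusted p = 0.321), and 1.68 without macrophages replicate 2 (adjusted p = 0.0188). Its 3 probes differed by 0.77, 1.06 and 1.12. The first of these, not the one used, read 1.82, 1.34, 1.80 and 1.16 in macrophages. Its microglia values were 0.95, 0.01, 0.98 and 1.09, so that its groups did not overlap and macrophages replicate 2 was not its lowest. The third probe read -1.43 on that array, its lowest value. Gpr77, the second receptor of the complement fragment C5a, was among the brightest members. Its microglia arrays read 4.21, 3.77, 3.74 and 4.12, and its macrophage arrays read 3.48, 0.95, 3.78 and 3.49. Macrophages replicate 2 was the low value here, and the difference went from -1.04 ± 0.59 (SE, adjusted p = 0.322) to -0.38 without it (adjusted p = 0.258). Gpr171, which is expressed by lymphocytes among other cells, differed by 2.21 ± 0.93 (SE, adjusted p = 0.193), and 1.27 without microglia replicate 3, which read -5.02 where the others read -1.42 to -1.03.

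Among the adhesion receptors Gpr56 was called. It binds collagen and the transglutaminase Tgm2 and is part of the known microglial signature. Microglia replicates 1 to 4 measured 4.56, 4.35, 4.26 and 4.30, and macrophage replicates 1 to 4 measured -0.67, 2.99, 0.10 and -1.12. Macrophages replicate 2 lay closest to the microglia arrays and the other 3 lay far below them, with no overlap between the groups. The difference was -4.04 ± 0.79 (SE, n = 4 and 4, limma adjusted p = 0.0213), or 16.4-fold, and without that array -4.93 (adjusted p = 0.000117). With the animal as a replicate block the adjusted p was 0.0533, and the call was lost in the 6 fits that left out any microglia array or macrophages replicate 1 or 3 (adjusted p up to 0.0653).

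Gpr125, an orphan adhesion receptor, had the same outlying array. Its microglia arrays measured 3.49, 2.53, 1.97 and 2.34, and its macrophage arrays -1.72, 3.16, -0.68 and -1.56. The macrophage array of animal B lay above all but the highest microglia array, and the others lay below every microglia array. The difference of -2.78 ± 1.01 missed the threshold (SE, n = 4 and 4, limma adjusted p = 0.139), and without macrophages replicate 2 it was -3.90 (adjusted p = 0.00155). A second, dimmer probe of Gpr125 gave -2.30. Gpr97, known from granulocytes, had a difference of 1.22 ± 0.59 (SE, adjusted p = 0.247), and of 1.76 without that array (adjusted p = 0.0278). Gpr124 and Gpr115 differed by 0.94 ± 0.74 and -0.23 ± 0.25 (SE, adjusted p = 0.474 and 0.616). Without macrophages replicate 2 the Gpr124 difference was 0.16 (adjusted p = 0.798).

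The constitutively active receptors that raise cyclic AMP, the brain-enriched orphans and the leukocyte orphans held no called gene among 2, 6 and 5 tested. Gpr3, the brightest tested member of the first list, measured -2.23 ± 0.61 in microglia and -2.63 ± 0.41 in macrophages (SD, n = 4 each, limma adjusted p = 0.524). Gpr26, of the second, measured 0.67 ± 0.53 and 0.15 ± 0.98 (SD, adjusted p = 0.561), a difference of -0.52 that was -0.14 without macrophages replicate 2. Gpr146, of the third, measured 1.91 ± 0.19 and 1.85 ± 0.78 (SD, adjusted p = 0.949), a difference of -0.05 that was -0.43 without that array (adjusted p = 0.211). In each of these the groups overlapped.

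Gpr155, a lysosomal membrane protein that senses cholesterol, was the called gene among the Gpr-named proteins outside the classical classes. Microglia replicates 1 to 4 measured 0.90, 2.07, 2.21 and 2.19, and macrophage replicates 1 to 4 measured -0.56, 0.60, 0.04 and 0.30. Microglia replicate 1 was low for its group but still above every macrophage array. The difference was -1.75 ± 0.38 (SE, n = 4 and 4, limma adjusted p = 0.0304), or 3.35-fold. The call did not survive leaving out microglia replicate 2, 3 or 4 or macrophages replicate 1, 3 or 4 (adjusted p up to 0.0925), or testing without a filter on dim probes (0.0581). Of the other 7 tested in this class, Gpr157 measured 3.59 ± 0.43 in microglia and 3.12 ± 0.36 in macrophages (SD, adjusted p = 0.362). Gpr137b, a lysosomal membrane protein, measured 2.05 ± 0.55 and 2.20 ± 1.13 (SD, adjusted p = 0.901) and its pseudogene Gpr137b-ps 3.13 ± 0.49 and 3.55 ± 0.86 (SD, adjusted p = 0.601). Without macrophages replicate 2 these differences went from 0.14 to 0.70 and from 0.43 to 0.85 (adjusted p = 0.181 and 0.0970). The probes of that gene and its close copy may pick up each other's transcripts, so that both values are uncertain. The other probes of Gpr137b differed by 0.44 and 0.60, and those of Gpr137b-ps by 0.10 and 0.75.

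The arrays lay on 2 slides, each read at 1 scan time, with 2 microglia and 1 macrophage arrays on one and 2 and 3 on the other. With the slide as a block all 5 calls held, at differences of -3.76, -5.01, -4.16, -1.94 and 2.36 for Gpr34, Gpr84, Gpr56, Gpr155 and Gpr132. On the slide of 3 arrays, in the same order, the differences were -3.94, -4.94, -5.12, -2.04 and 1.97, and on the slide of 5 arrays -3.66, -5.05, -3.62, -1.89 and 2.57. Every sign was kept within both slides. The smaller slide holds 1 macrophage array, so that its values rest on that array and its fit assumes that the array varies like the microglia arrays. On the larger slide all 5 missed the threshold, Gpr34 with a limma adjusted p of 0.0606.

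**Figure D3:**
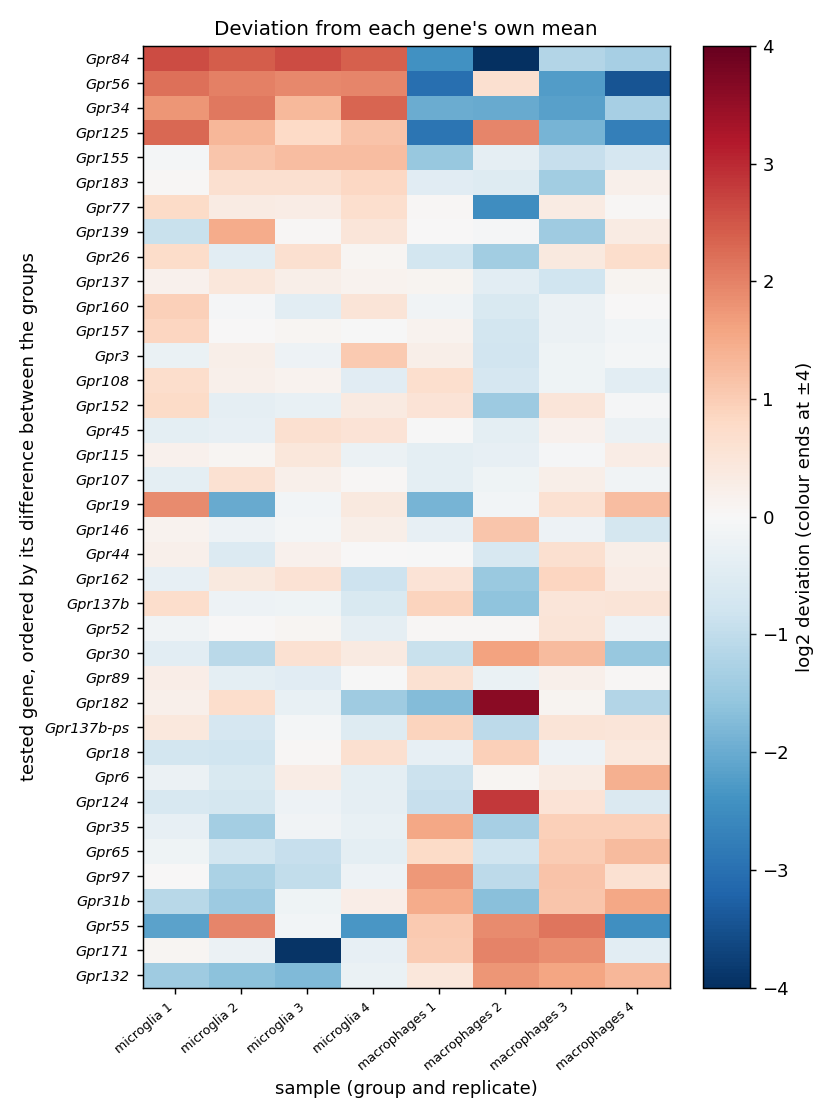
Deviation of 38 of the 39 tested genes from their own mean over the 8 arrays (colour, log2 units), with genes in rows ordered by their difference between the groups and the 4 microglia and 4 macrophage arrays in columns. The top rows are high in all microglia columns. The column of macrophages replicate 2 differs from the other macrophage columns in many rows, and it holds the lowest value of 13 genes and the highest of 7.

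Some genes outside the test were measured in one group alone. Gpr165, an orphan receptor, measured -3.34, -2.50, -2.46 and -1.44 in microglia, with 3 arrays well above background, and it was not well above background on any macrophage array. The groups did not overlap, and it was at least 2.94-fold lower in macrophages. For this bound the brighter group's mean was set against the dimmer arrays, each at its probe's own signal or at its lowest well-measured signal, whichever was higher. In the other direction Gpr141, an orphan receptor of leukocytes, was above background on no microglia array and on 3 macrophage arrays, with -2.34, -0.97, -1.07 and -3.94 in macrophages, and it was at least 3.32-fold higher there. Gpr161, which acts in the primary cilium, was likewise seen on 0 and 3 arrays and was at least 1.86-fold higher in macrophages. Gpr161 read -1.87 on macrophages replicate 2 and -3.49 to -3.06 on the other macrophage arrays. Of the 95 members, 47 were above background on none of the microglia arrays and 34 on none of the macrophage arrays. Macrophages replicate 2 was the only array that measured 9 of the members. On all 4 arrays of a group, 30 members were above background in microglia and 30 in macrophages.

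Macrophages replicate 2 measured 51 members above background, against 38 to 43 on the other macrophage arrays and 37 to 43 on the microglia arrays, and 9 of the 15 members seen on exactly 1 array were seen there. Gpr116, known from endothelium and lung, measured 1.74 there and -5.88 to -5.10 on the other 3 macrophage arrays. Gpr124, a coreceptor of Wnt7 signals in brain endothelium, measured 4.02 against 0.26 to 1.74, and Gpr4 measured 1.56 against -5.91 to -2.61. These receptors were high on the array on which the vessel markers were highest. A second, dimmer Gpr4 probe read -2.52 there, -5.12 to -4.53 on the other macrophage arrays and -5.66 to -3.26 in microglia. That probe differed by -0.16 between the groups, where the probe used differed by 1.94. The 12 endothelial markers had a median of 6.39 on macrophages replicate 2, of -1.77 to 2.82 on the other macrophage arrays and of -5.10 to -3.68 in microglia. All 12 were above background on that array and 5 on each microglia array, and Cdh5, Slco1a4, Slco1c1, Erg, Esam and Ptprb were above it on no microglia array. Their summed signal was 2.82 to 5.04 in microglia, 4.80 to 7.46 on the other macrophage arrays and 9.98 on that array (log2). The array also had the highest summed signal among the macrophage arrays for markers of natural killer cells (4.49 against up to 2.09 on the others), red blood cells (7.65 against up to 2.88), neutrophils (6.81 against up to 5.20) and dendritic cells (3.27 against up to 1.85). Among the macrophage arrays, markers of astrocytes (2.58 against up to 1.29) and of oligodendrocytes and precursors (4.38 against up to 3.91) were also highest there. So were those of monocytes and monocyte-derived macrophages (8.84 against up to 8.68). The monocyte list shares Ly6c1 with the endothelial list. Ly6c1 read 7.84 there and 3.99 to 6.83 on the other macrophage arrays, and the monocyte order rests on it. On the microglia arrays the astrocyte sum was higher, at 3.68 to 3.84. For the remaining marker lists another macrophage array was highest. The part of other cells' transcripts in the receptor values, those of Gpr56 and Gpr125 included, was not tested.

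**Figure D4:**
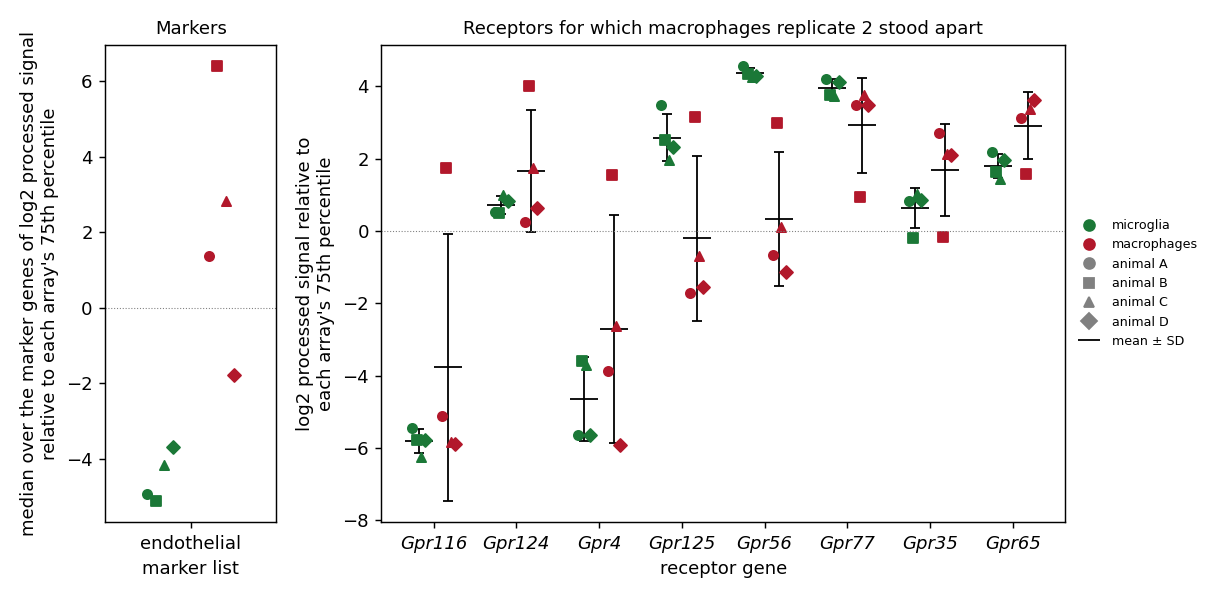
Left, median log2 signal of the 12 endothelial markers on each array. Right, log2 processed signal relative to each array's 75th percentile of 8 receptors, with green for microglia, red for macrophages, the animal as the shape and black bars for the mean ± SD of 4 samples. The red square, macrophages replicate 2 of animal B, is the highest macrophage value for Gpr116 at 1.74, Gpr124 at 4.02, Gpr4, Gpr125 and Gpr56, and the lowest for Gpr77 at 0.95, Gpr35 and Gpr65.

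Beside the members, 105 genes linked to G protein signalling were on the array. They include 18 ligands or enzymes of ligand metabolism and 13 adhesion receptors under other names. All 105 are referred to as signalling genes below. Of the 105, 70 were tested, and 3 were called higher and 4 lower in macrophages, against 2.53% and 4.13% of all tested gene names. The median difference of the 70 was 0.05. Of 20 tested G protein subunits 1 was called, Gna15, the alpha subunit of blood cells that couples many receptors to phospholipase C. It measured 3.53, 3.79, 3.72 and 4.11 in microglia and 2.28, 1.06, 2.27 and 2.27 in macrophages. The groups lay apart, with a difference of -1.82 ± 0.32 (SE, n = 4 and 4, limma adjusted p = 0.0142), and the adjusted p was 0.0504 without microglia replicate 4.

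Another list held receptor kinases, arrestins and RGS proteins, which end receptor signals, and the G protein regulators of the Ric8 and Gpsm families. Of its 23 tested genes, 1 was called in each direction. Rgs16 was higher in macrophages, at 1.77 ± 0.39 (SE, limma adjusted p = 0.0320), and Rgs6 was lower, at -1.20 ± 0.21 (SE, adjusted p = 0.0142), with 2 of 4 macrophage arrays well above background. The Rgs16 call was lost with the animal as a replicate block (adjusted p = 0.103) and with the slide as a block (0.0694), and it held in 2 of the 8 fits without 1 array, those without microglia replicate 1 or macrophages replicate 2. The Rgs6 call was lost without microglia replicate 3 (adjusted p = 0.0536), and normexp background correction gave Rgs6 a difference of -0.44 (0.162).

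Among 11 tested adenylyl cyclases and phospholipases C beta, the calcium-stimulated cyclase Adcy8 showed the clearest separation. It measured -0.48, 1.04, -0.28 and 0.18 in microglia and -3.91, -4.48, -3.45 and -3.00 in macrophages, where 2 of 4 arrays were well above background. The groups did not overlap, and the fitted difference was -3.82 ± 0.42 (SE, n = 4 and 4, limma adjusted p = 0.00143), or 13.02-fold with low signals raised to the array's lowest measured level. Plcb4 was higher in macrophages, at 3.21 ± 0.67 (SE, adjusted p = 0.0270), and its highest value, 4.56, was on macrophages replicate 2, without which the difference was 2.52 (adjusted p = 0.00623). It lost its call with the animal as a replicate block (adjusted p = 0.0895), with the slide as a block (0.0526) and without any one of the microglia arrays or macrophages replicate 1 (0.0510 to 0.0843).

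Of 10 tested ligands of Gpr-named receptors and enzymes of their metabolism, Ch25h was the called gene, with 5.18, 4.30, 4.34 and 4.12 in microglia and 2.12, 2.52, 3.21 and 3.49 in macrophages. It held its call in the fits without macrophages replicate 2 or 4 and lost it in the other 6 (adjusted p up to 0.0833) and with the slide as a block (0.0692). The Gpr56 ligands Col3a1 and Tgm2 differed by 1.98 and 0.84 and were not called (adjusted p = 0.241 and 0.119). Among 6 tested adhesion receptors under other names, Cd97 (now Adgre5), a leukocyte receptor of the complement regulator Cd55, was higher in macrophages. It measured 0.57, -0.99, 0.52 and 0.44 in microglia and 2.18, 3.61, 2.60 and 2.01 in macrophages, a difference of 2.46 ± 0.47 (SE, n = 4 and 4, limma adjusted p = 0.0186). The call held without any 1 array and was lost with the animal as a replicate block (adjusted p = 0.0907).

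Within the slides the 7 called signalling genes kept their signs, and none passed the threshold on the slide of 5 arrays (limma). On the slide of 3 arrays the differences were -1.38, -1.13, 1.41, -4.18, 3.30, -2.62 and 2.39 for Gna15, Rgs6, Rgs16, Adcy8, Plcb4, Ch25h and Cd97. On the slide of 5 arrays they were -2.05, -1.20, 1.96, -3.59, 2.79, -1.16 and 2.26. Without a filter on dim probes Rgs16 and Ch25h missed the threshold (adjusted p = 0.0606 and 0.0681), and so did Ch25h with each array centred on its median (0.0658).

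**Figure D5:**
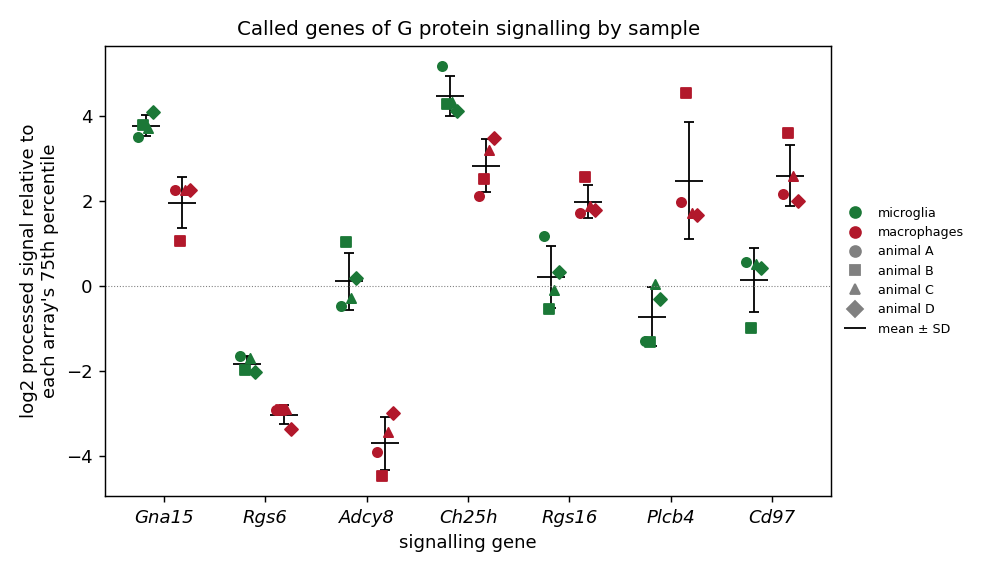
Log2 processed signal relative to each array's 75th percentile (vertical axis) of the 7 called signalling genes in every sample, green for microglia and red for macrophages, with the animal as the shape and black bars for the mean ± SD of 4 samples. Gna15, Rgs6, Adcy8 and Ch25h lie lower in macrophages and Rgs16, Plcb4 and Cd97 higher, and the 2 groups do not overlap for any of the 7.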

How the data were processed

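The 8 arrays measured cDNA amplified by SuperAmp, a global PCR whose effect on transcript proportions is not known, per the labels' protocols. Agilent Feature Extraction 10.7.3.1 read them, per the file headers, and the authors deposited its background-corrected processed intensity for each spot, not normalized between arrays, with a flag for spots well above background. The authors also deposited a table of log2 values of the same arrays (column medians 4.604 to 4.606, r of 0.996 or more with the same array). Its normalization is not given in the sources used here, and it served as an alternative.

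Each array held 62976 spots, of which 3671 controls and the outlier flags were left out, and spots of a probe were averaged. The 75th percentile of the array was subtracted on the log2 scale, and the probe with the highest mean stood for a gene name. The number of arrays limits the precision. Samples were compared with lmFit and eBayes of limma 3.58.1 (R 4.3.3), two-sided, without a block. Tables and plots were made with Python 3.11.15, pandas 2.3.3, numpy 2.4.6 and matplotlib 3.10.9. The fit was tested on simulated data. Samples are paired by animal, per the labels. Within animals A to D, the 2 samples' departures from their group means had correlations of 0.0621, 0.102, 0.0637 and -0.0125 over genes, and the blocked value stands beside a result where it changes the call. No saturated gene spots were found. Alternatives were other background corrections, scalings, filters, probe rules, blocks and single arrays left out.

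Named genes were the called members, Gpr34, Gpr56, Gpr84 and Gpr183, the 6 brightest members of each group, the brightest tested member of each role list and up to 4 called genes of each signalling list. Other members were named after their values were seen. The members, lists and rules were chosen with earlier results of these data known. Of the 95 members, 95 were matched to the RefSeq gene table (GRCm38.p6), by accession, symbol or synonym, and 68 to a promoter. RefSeq sequences were used as given there. Probe positions are those of the array files (mm9). Some members are not reported here by name.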

Additional observations from a re-analysis of the deposited data

Results flagged for a closer look

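The screen for outlying values covered only the receptors among the named genes defined above. Members named after their values were seen, such as Gpr171, Gpr116 and Gpr31b, were not screened. In groups of 4 arrays, 5 values lay farther from the nearest other array than Dixon's test allows at 95%. For a single group, chance does so about 1 time in 20. Both groups of every screened receptor were examined without a correction for their number, so some of the 5 values may be chance. All are log2 processed signals relative to the array's 75th percentile. Gpr155 on microglia replicate 1 was 0.90, below the other microglia arrays at 2.07 to 2.21. Gpr157 on the same array was 4.23, above the others at 3.34 to 3.44. Gpr35 on microglia replicate 2 was -0.19, below the others at 0.83 to 1.02. Gpr77 on macrophages replicate 2 was 0.95, below the others at 3.48 to 3.78. Gpr137b on the same array was 0.52, below the others at 2.61 to 3.003. Macrophages replicate 2 is also the array with the highest endothelial markers, and their part in these values was not tested.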

How the results depend on the processing

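Over the 12 called named genes, 261 alternative values were computed, of which 193 kept the direction and the call, 68 kept the direction and missed the threshold, and 0 reversed. Of the 11 named genes that were not called, 4 values passed the threshold under an alternative, and 12 of 242 values had the other sign, 6 of Gpr137b (lowest -0.12, main 0.14), 5 of Gpr146 (highest 0.17, main -0.05) and 1 of Gpr3, at 0.24 within the slide of 3 arrays (main -0.40). For called members, the main counts of 1 higher and 4 lower in macrophages became 0 and 0 within the slide of 5 arrays. The higher count was 2 with no filter on dim probes or a filter of 1 array, where Gpr141 entered. With the latter filter Gpr165 was called lower and Gpr155 missed the threshold (limma adjusted p = 0.0501). Gpr141 and Gpr165 were well above background only in the group where they were higher, so their calls are no support for a difference. Leaving out single arrays gave 1 to 5 higher and 2 to 6 lower, with the largest counts without macrophages replicate 2, which added Gpr35, Gpr65, Gpr97 and Gpr31b to the higher and Gpr125 among others to the lower members. Gpr31b has 3 probes, and the one matched to its RefSeq accession differed by 0.14 where the 2 others differed by 1.23 and 1.81. With the animal as a replicate block, 1 member was called higher and 3 lower.

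For signalling genes, the main 3 higher and 4 lower became 0 higher with the replicate block, 1 with the slide as a block, 0 higher and 0 lower within the slide of 3 or of 5 arrays, 5 higher with normexp background correction and 7 lower with the percentile over probes detected on all arrays. Single arrays left out gave 1 to 5 higher and 2 to 6 lower. Over all gene names, 498 were called higher and 815 lower. The numbers were 803 and 633 with median centring, 452 and 1267 with that percentile, 255 and 481 with the replicate block, 270 and 580 with the slide block, and 506 and 485 with a filter of all 8 arrays. The median difference of all gene names moved from 0.02 to 0.23 and to -0.14 with median centring and that percentile. The cause of these changes was not tested. Within a slide the smaller number of arrays leaves less power, the slide of 3 has 1 macrophage array whose spread is assumed to be that of the microglia arrays, and dim probes have only bounds.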

Other observations

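Receptors known from other brain and blood cells were also measured. The lowest and highest values of Gpr17, a receptor of oligodendrocyte precursors, were -6.21 and 0.78, and that of macrophages replicate 2 was the only one well above background. Gpr39, a zinc-sensing receptor, measured 0.03 on the same array and -1.41 on microglia replicate 1, and was below background on the other 6. Gpr182, known from endothelium, measured 0.54 on that array and -4.80 to -2.35 on the others. Gpr1, a chemerin receptor, and Gpr158, a class C orphan, were seen on macrophages replicate 1 alone, at -0.86 and -0.73 against -6.60 to -5.11 and -6.38 to -4.93 elsewhere. Of these, Gpr182 alone was measured on enough arrays to be tested, and it differed by 0.41, or by -0.73 without macrophages replicate 2 (limma adjusted p = 0.440 there).

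Leaving out the array on which the vessel markers were highest changed the members in both directions. Gpr65, Gpr35, Gpr97 and Gpr31b read -0.93 to 3.37 on average over the other 3 macrophage arrays and -3.12 to 1.58 on that array, and Gpr56 and Gpr125 read -0.56 and -1.32 against 2.99 and 3.16. The low Gpr35 value depended on the probe, as another Gpr35 probe read 1.34 on macrophages replicate 2.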
